A study of Mus musculus with 9 samples.

Results

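The alpha and beta crystallins are 8 genes: Cryaa, Cryab, Cryba1, Cryba2, Cryba4, Crybb1, Crybb2 and Crybb3. They were taken by gene name from a deposited table of 54532 mouse genes, and all 8 are described here. RNA came from flat mounts of choroid and retina of C57BL/6 mice, in 3 groups of 3 libraries. The BetP-Gel@Ran group was sampled 3 months after an intravitreal injection, the CNV group carries wet AMD in its sample titles (age-related macular degeneration with choroidal neovascularisation), and the third group was untreated. For the BetP-Gel@Ran group the treatment label names the gel BetP-Gel without ranibizumab, an antibody fragment against vascular endothelial growth factor, and does not say whether these mice had CNV. No age is given for any group and no sampling time for the CNV and untreated groups, so time and treatment cannot be told apart. Nothing in the labels ties replicates to different mice, and p-values therefore reflect only how far these samples scatter, possibly for technical reasons.

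Crystallins are the main soluble proteins of the lens, where they keep the fibre cells transparent. Cryaa and Cryab encode alpha A and alpha B crystallin, small heat shock proteins that hold unfolding proteins in solution. Cryaa is largely a lens gene, whereas Cryab is also strongly expressed in skeletal and heart muscle and in glia, and is induced by stress. The other 6 encode beta crystallins, structural proteins built from Greek key folds: the acidic chains beta A1/A3, A2 and A4, and the basic chains beta B1, B2 and B3. Beta B2 is known as a beta crystallin that builds up in the lens after birth, and low crystallin expression is also known in retina.

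The promoters of Crybb2 and Crybb3 are shown because these neighbours did not keep the same proportions across groups, and those of Cryba1 and Crybb1 because they hold both motifs named here. On mouse chromosome 5, Crybb2 and Crybb3 lie in tandem on the minus strand with 5721 bases between them, and Cryba4 and Crybb1 lie head to head with 3296 bases between them. The RefSeq promoter table (GRCm38.p6) matched 7 of the 8 members by symbol, all but Cryab. Each sequence is the 250 bases before the RefSeq start, 5′ to 3′ on the gene's strand. Capitals mark TATAAA, the core of a TATA box, and TGCTGAC, a half-site of Maf factors, which are known activators of crystallin genes; both were sought on both strands and nowhere overlapped.
Cryba1, chr11:77725294-77725543, minus strand: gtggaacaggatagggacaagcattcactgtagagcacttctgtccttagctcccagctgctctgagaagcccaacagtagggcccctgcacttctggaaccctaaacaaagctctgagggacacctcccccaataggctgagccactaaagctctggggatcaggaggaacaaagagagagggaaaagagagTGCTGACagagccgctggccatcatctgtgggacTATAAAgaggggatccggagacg
Crybb1, chr5:112255570-112255819, plus strand: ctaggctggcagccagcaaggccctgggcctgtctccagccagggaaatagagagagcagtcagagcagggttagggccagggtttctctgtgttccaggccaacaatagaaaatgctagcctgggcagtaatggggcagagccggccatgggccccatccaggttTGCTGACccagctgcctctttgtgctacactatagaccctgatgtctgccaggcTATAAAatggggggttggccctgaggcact
Crybb2, chr5:113070118-113070367, minus strand: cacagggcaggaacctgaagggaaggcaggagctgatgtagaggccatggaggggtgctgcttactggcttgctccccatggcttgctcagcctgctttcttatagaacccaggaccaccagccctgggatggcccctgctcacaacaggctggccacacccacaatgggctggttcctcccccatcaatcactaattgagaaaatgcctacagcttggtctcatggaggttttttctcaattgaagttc
Crybb3, chr5:113081585-113081834, minus strand: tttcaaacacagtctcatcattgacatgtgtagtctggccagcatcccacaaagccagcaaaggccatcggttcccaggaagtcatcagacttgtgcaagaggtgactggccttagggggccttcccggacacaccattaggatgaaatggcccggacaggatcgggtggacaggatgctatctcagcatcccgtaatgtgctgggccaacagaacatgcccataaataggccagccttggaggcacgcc

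The Maf half-site was found in 4 of the 7 promoters, those of Cryaa, Cryba1, Cryba4 and Crybb1, and in 3.81% of all 32851 promoters in the table. TATAAA was found in 2 of the 7, Cryba1 and Crybb1, and in 12.4% of all promoters. The heat shock element letters TTCNNGAA were found in 1 of the 7, Cryba1, against 7.17% of all promoters, and GAANNTTC in 0 of the 7, against 6.69%. The letters searched were chosen with the sequences and values known, and a match describes the letters only. Crybb2 has further annotated starts inside the gene, which this window does not cover.

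Values are FPKM (fragments per kilobase of gene length, scaled to the size of the library), so ranks and shares between genes depend on the deposited lengths. Among the members these ran from 838 bases for Cryba4 to 2556 for Cryaa. The exons of Cryaa in the GENCODE annotation cover 2076 bases. Each library held 16990118 to 18753737 reads on genes, and the 8 members took 0.211%, 0.847% and 0.308% of them in BetP-Gel@Ran libraries, 0.0262%, 0.0146% and 0.0344% in CNV libraries and 0.0961%, 0.0807% and 1.79% in untreated libraries. Untreated replicate 3 stood apart before any comparison: its summed FPKM of the 7 members other than Cryab was 10915, against 378 and 276 in untreated replicates 1 and 2, so the members' differences from untreated libraries and the ratios tested are also given without it where they move. Markers of the labelled tissue were present: the 12 rod markers summed to 2481 to 3231 FPKM in BetP-Gel@Ran libraries, 1815 to 2351 FPKM in CNV libraries and 5041 to 5301 FPKM in untreated libraries, and the 8 pigment epithelium markers summed to 942 to 1042 FPKM in BetP-Gel@Ran libraries, 894 to 1287 FPKM in CNV libraries and 919.97 to 1345 FPKM in untreated libraries. Genes of the corneal epithelium were present as well, with a sum over 8 markers of 12348 to 14773 FPKM in BetP-Gel@Ran libraries, 7800.4 to 9487 FPKM in CNV libraries and 16677 to 19669.9 FPKM in untreated libraries. The tissue or cells that the crystallin RNA came from were not tested. In such bulk tissue, fewer cells of a type and less RNA per cell cannot be told apart.

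Cryaa (ENSMUSG00000024041, mm10 chr17:31677933-31681724, plus strand), the lens alpha crystallin, had 181, 992 and 341 FPKM in BetP-Gel@Ran libraries, 10.9, 0.825 and 16.7 FPKM in CNV libraries and 78.8, 34.2 and 1190.4 FPKM in untreated libraries. All CNV values lay below all values of the other groups, whereas the BetP-Gel@Ran and untreated ranges overlapped. On the log2(FPKM + 1) scale the difference was -4.37 ± 1.43 (SE) for CNV minus untreated (limma adjusted p = 0.0390) and 5.77 ± 1.43 for BetP-Gel@Ran minus CNV (limma adjusted p = 0.0380). Adjusted p-values here are from limma, fitted to 14086 genes and all 9 libraries, with Benjamini-Hochberg adjustment within each comparison and a threshold of 0.05. The depth behind the lowest value was 37 reads of Cryaa in CNV replicate 2.

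Cryab (ENSMUSG00000032060, mm10 chr9:50751325-50756636, plus strand), the alpha crystallin that other tissues also make, spanned a much narrower range. It had 177, 596 and 289 FPKM in BetP-Gel@Ran libraries, 84.8, 87.2 and 113.9 FPKM in CNV libraries and 246, 214 and 708 FPKM in untreated libraries. The CNV values again lay below all others, and again the other groups overlapped. Cryab fell by 1.81 ± 0.52 on the log2 scale for CNV minus untreated (limma adjusted p = 0.0220). Its difference of 1.72 ± 0.52 for BetP-Gel@Ran minus CNV did not pass (limma adjusted p = 0.0627), but did pass without untreated replicate 3 (limma adjusted p = 0.0289). In CNV replicate 2, where Cryaa was at 0.825 FPKM, Cryab was still at 87.2 FPKM, or 2263 reads.

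**Figure D1:**
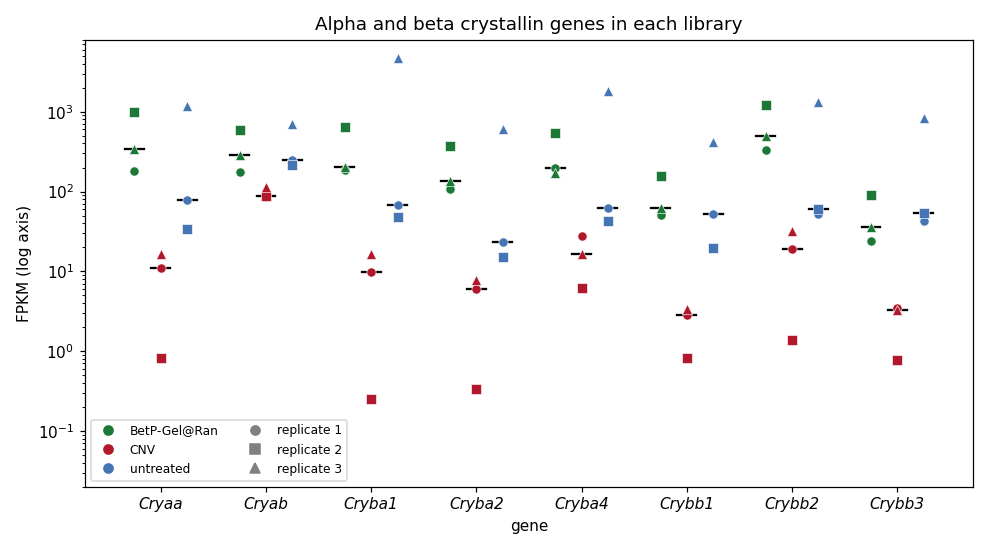
FPKM (log axis) of the 8 genes in each library, with BetP-Gel@Ran, CNV and untreated libraries from left to right for each gene, marker shape giving the replicate and the black line the median of 3 libraries. CNV values are lowest for every gene, untreated replicate 3 reaches 4712 FPKM for Cryba1, and Cryab in CNV libraries stays between 84.8 and 113.9 FPKM.

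Among the acidic beta chains, Cryba1 (ENSMUSG00000000724, mm10 chr11:77718615-77725283, minus strand), which encodes beta A1 and A3 from 1 transcript, varied most. It had 188, 637 and 205 FPKM in BetP-Gel@Ran libraries, 9.82, 0.250 and 16.4 FPKM in CNV libraries and 67.2, 48.0 and 4712 FPKM in untreated libraries. CNV libraries were lowest, with 7 reads in CNV replicate 2, and the untreated group held both the next lowest and the highest values. Cryba1 fell by 5.34 ± 1.80 on the log2 scale for CNV minus untreated (limma adjusted p = 0.0434), and by 3.23 ± 1.07 without untreated replicate 3 (limma adjusted p = 0.0458). The gene lies within Nufip2 on the opposite strand, and the library kit does not mark strand. Nufip2 was at 7.33 to 7.50 FPKM in BetP-Gel@Ran, 7.01 to 7.89 FPKM in CNV and 4.56 to 5.09 FPKM in untreated libraries, a range far narrower than that of Cryba1.

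Cryba2 (ENSMUSG00000006546, mm10 chr1:74889934-74893143, minus strand), the beta A2 gene, had 107, 372 and 134 FPKM in BetP-Gel@Ran libraries, 6.01, 0.334 and 7.69 FPKM in CNV libraries and 23.0, 15.1 and 599.7 FPKM in untreated libraries. It was the lowest of the 8 in untreated replicates 1 and 2. Cryba2 rose by 5.35 ± 1.40 on the log2 scale for BetP-Gel@Ran minus CNV (limma adjusted p = 0.0445), and its difference of -3.83 ± 1.40 for CNV minus untreated did not pass (limma adjusted p = 0.0586). Cryba4 (ENSMUSG00000066975, mm10 chr5:112246493-112252518, minus strand), the beta A4 gene, had 199, 544 and 169 FPKM in BetP-Gel@Ran libraries, 27.6, 6.26 and 16.4 FPKM in CNV libraries and 61.9, 42.7 and 1843 FPKM in untreated libraries. It kept the highest level of the 6 beta genes in CNV replicates 1 and 2, and passed in no comparison (limma adjusted p = 0.0725 for CNV minus untreated and 0.0834 for BetP-Gel@Ran minus CNV).

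Of the basic beta chains, Crybb1 (ENSMUSG00000029343, mm10 chr5:112255815-112269585, plus strand) passed in both comparisons with CNV. It had 51.1, 157 and 61.8 FPKM in BetP-Gel@Ran libraries, 2.87, 0.810 and 3.38 FPKM in CNV libraries and 52.0, 19.8 and 421 FPKM in untreated libraries. The difference was -4.63 ± 1.04 for CNV minus untreated (limma adjusted p = 0.00844) and 4.68 ± 1.04 for BetP-Gel@Ran minus CNV (limma adjusted p = 0.0279). The BetP-Gel@Ran and untreated ranges overlapped.

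Crybb2 (ENSMUSG00000042240, mm10 chr5:113058258-113070117, minus strand), the beta B2 gene, had 336, 1231 and 500.3 FPKM in BetP-Gel@Ran libraries, 18.8, 1.39 and 32.2 FPKM in CNV libraries and 52.1, 61.2 and 1316 FPKM in untreated libraries. By FPKM it was the most abundant of the 8 in all 3 BetP-Gel@Ran libraries and in no other library, although Cryaa had more reads in BetP-Gel@Ran replicate 2. Crybb2 rose by 5.67 ± 1.43 for BetP-Gel@Ran minus CNV (limma adjusted p = 0.0405), and its value of -3.81 ± 1.43 for CNV minus untreated did not pass (limma adjusted p = 0.0635). Its neighbour Crybb3 (ENSMUSG00000029352, mm10 chr5:113075839-113081584, minus strand) had 24.1, 90.6 and 35.5 FPKM in BetP-Gel@Ran libraries, 3.44, 0.782 and 3.24 FPKM in CNV libraries and 43.3, 54.6 and 833 FPKM in untreated libraries. By FPKM, Crybb3 was the least abundant of the 8 in all 3 BetP-Gel@Ran libraries, although Crybb1 had fewer reads there. Crybb3 fell by 5.30 ± 1.11 for CNV minus untreated (limma adjusted p = 0.00622), and its 3.76 ± 1.11 for BetP-Gel@Ran minus CNV did not pass (limma adjusted p = 0.0609).

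In CNV against untreated libraries, all 8 genes passed the filter on low values and 5 fell: Cryaa, Cryab, Cryba1, Crybb1 and Crybb3. Of all tested genes, 22.1% were called lower, 22.5% higher and 44.6% in either direction. The groups did not overlap for 8 of 8 members, all lower, against 26.7% of all tested genes lower and 27.7% higher. The members varied together over the libraries (Pearson r with Cryaa of 0.883 to 0.994), so they do not count as 8 separate results. The median difference of the members was -4.10 on the log2 scale, against 0.0057 over all tested genes, and -2.59 without untreated replicate 3. The 5 calls rested on few libraries: leaving out 1 library at a time gave 2 to 7 calls. The lowest count, 2, came without CNV replicate 1, 2 or 3 in turn. The 3 counted without BetP-Gel@Ran replicate 1 or 3 was also under the 5 by more than 1.5 times, and 0 were called with limma voom on recovered reads, where 46.5% of all tested genes were called. Without untreated replicate 3 the difference of Cryaa was -2.87 ± 1.05 and no longer passed (limma adjusted p = 0.0635), while Cryab, Cryba1, Crybb1 and Crybb3 were still called, beside 41.2% of all tested genes. The differences of Cryba2, Cryba4 and Crybb2 then became -2.18 ± 0.85, -1.77 ± 0.65 and -2.31 ± 1.06, none of them called (limma adjusted p = 0.0750, 0.0642 and 0.121).

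Set against CNV libraries, BetP-Gel@Ran libraries had higher levels of 4 of the 8 genes: Cryaa, Cryba2, Crybb1 and Crybb2. Of all tested genes, 5.81% were called higher, 8.27% lower and 14.1% in either direction. The groups did not overlap for 8 of 8 members, all higher, against 18.3% of all tested genes higher and 18.6% lower. Here too the members do not count as 8 separate results. The median difference of the members was 5.01, against 0.00048 over all tested genes. Without untreated replicate 3, whose spread enters the shared fit, all 8 were called, with limma adjusted p of 0.00549 to 0.0289, beside 14.2% of all tested genes. Counts fell to 0 without BetP-Gel@Ran replicate 2 or 3 or CNV replicate 1 or 2, to 1 without BetP-Gel@Ran replicate 1, to 2 without untreated replicate 1, and to 0 with limma voom on recovered reads, where 16.6% of all tested genes were called. The direction was the same for all 8 genes under each of these settings.

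Between BetP-Gel@Ran and untreated libraries, none of the 8 genes passed with limma (0 at an unadjusted p under 0.05, and 0 with limma voom), against 34.2% of all tested genes called in either direction (16.1% higher and 18.1% lower) and 35.4% called with limma voom. The groups overlapped for every member, whereas 25.3% of all tested genes were higher and 25.4% lower without overlap. The estimates were wide: Cryaa differed by 1.40 on the log2 scale with a 95% interval of -1.91 to 4.72, and Cryab by -0.10 with an interval of -1.30 to 1.10. Without untreated replicate 3, 3 genes were called higher: Cryba2 by 3.16 ± 0.85, Cryba4 by 2.34 ± 0.65 and Crybb2 by 3.37 ± 1.06 (limma adjusted p = 0.0282, 0.0329 and 0.0488), beside 29.8% of all tested genes called. Both comparisons with CNV share the CNV libraries, so their opposite signs are not separate evidence.

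**Figure D2:**
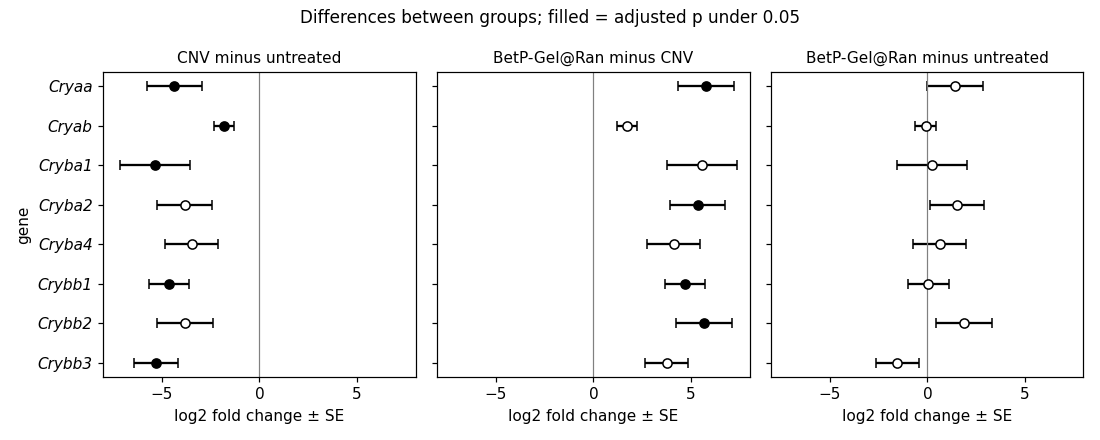
Log2 fold change ± SE of each gene (rows) in the 3 comparisons, on the log2(FPKM + 1) scale, with filled points for limma adjusted p under 0.05. All 8 genes lie below 0 for CNV minus untreated and above 0 for BetP-Gel@Ran minus CNV, with 5 and 4 filled points, and Cryab has the smallest differences in both.

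Cryab followed Cryaa in rank but not in proportion. Over the 9 libraries, log2 values of Cryab and Cryaa had a Pearson r of 0.923 (exact permutation p = 0.000474, adjusted 0.000553 over the 7 members set against Cryaa) and a Spearman rho of 0.933 (exact permutation p = 0.000750, adjusted 0.000874). Without CNV replicate 2 and untreated replicate 3, the libraries farthest from the median of Cryaa, r was 0.906. Group and level go together in these libraries, and 3 libraries are too few for a correlation within a group. Among the members, Cryba2 was most like Cryaa (r = 0.994, exact permutation p = 2.76e-06, the smallest that 9 libraries can give; adjusted 9.65e-06; rho = 1.0, adjusted p = 1.93e-05), and Crybb3 least (r = 0.883, exact permutation p = 0.00199, adjusted 0.00199; rho = 0.833, adjusted p = 0.00827). Crybb3 also had the lowest r without the same 2 libraries, 0.777, where Cryba2 kept 0.989.

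The ratio of Cryab to Cryaa was 0.976, 0.601 and 0.848 in BetP-Gel@Ran libraries, 7.81, 105.7 and 6.84 in CNV libraries and 3.12, 6.26 and 0.595 in untreated libraries. Cryab exceeded Cryaa in every CNV library and in untreated replicates 1 and 2, and lay below it in all BetP-Gel@Ran libraries and in untreated replicate 3. As a difference of log2(FPKM + 1) values, Cryab minus Cryaa was -0.34 ± 0.36 in BetP-Gel@Ran, 3.72 ± 1.63 in CNV and 1.16 ± 1.73 in untreated libraries (SD, n = 3 each). That difference was 2.55 higher in CNV than in untreated libraries and 4.05 lower (-4.05) in BetP-Gel@Ran than in CNV libraries, each without overlap and each with an exact two-sided permutation p = 0.10, the smallest that 3 against 3 libraries allows (adjusted 0.133 over 12 such tests). For BetP-Gel@Ran minus untreated it was -1.50, with overlap (exact permutation p = 0.40, adjusted 0.436). Without untreated replicate 3 the difference was 1.60 for CNV minus untreated (exact permutation p = 0.40) and -2.46 for BetP-Gel@Ran minus untreated (exact permutation p = 0.10, the smallest that 3 against 2 libraries allows), with no overlap in either. Untreated replicate 1, for example, had 78.8 FPKM of Cryaa and 246 FPKM of Cryab. BetP-Gel@Ran replicate 1 had more Cryaa, 181 FPKM, and less Cryab, 177 FPKM. BetP-Gel@Ran replicates 2 and 3 had more of both, with 992 and 341 FPKM of Cryaa and 596 and 289 FPKM of Cryab. At the top, BetP-Gel@Ran replicate 2 and untreated replicate 3 had nearly the same ratio, 0.601 and 0.595.

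With Cryaa as a covariate in the fit of all genes, an alternative added after the data were seen, the difference of Cryab was -0.39 ± 0.43 for CNV minus untreated, -0.17 ± 0.51 for BetP-Gel@Ran minus CNV and -0.55 ± 0.31 for BetP-Gel@Ran minus untreated, none of them called (limma adjusted p = 0.547, 0.901 and 0.201). In that fit 25.3%, 0.0142% and 30.9% of all tested genes were called in the 3 comparisons. Cryaa itself differed between groups, so the covariate takes up part of the group difference. It was at 0.825 to 16.7 FPKM in CNV, 181 to 992 FPKM in BetP-Gel@Ran and 34.2 to 1190.4 FPKM in untreated libraries. CNV libraries thus shared no Cryaa level with either other group, and both comparisons with CNV extend a common slope beyond shared levels. The lack of calls there cannot show that Cryab follows Cryaa.

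Cryab lies head to head with Hspb2, a small heat shock gene of heart and skeletal muscle on the opposite strand (mm10 chr9:50751078-50752354), whose exons overlap those of Cryab by 252 bases. Hspb2 had 5.82, 5.65 and 4.73 FPKM in BetP-Gel@Ran libraries, 4.60, 5.06 and 5.92 FPKM in CNV libraries and 15.9, 12.6 and 14.6 FPKM in untreated libraries. It separated the untreated libraries from both other groups and did not move with Cryaa: untreated replicates 1 and 3 were at 15.9 and 14.6 FPKM although Cryaa was at 78.8 and 1190.4 FPKM. Hspb2 fell by 1.31 ± 0.11 for CNV minus untreated (limma adjusted p = 3.81e-05) and by 1.26 ± 0.11 for BetP-Gel@Ran minus untreated (limma adjusted p = 1.01e-04), and was not called for BetP-Gel@Ran minus CNV (0.05 ± 0.11, limma adjusted p = 0.798). With Cryaa as a covariate it still differed from untreated by -1.29 ± 0.12 in BetP-Gel@Ran libraries (limma adjusted p = 3.72e-04) and by -1.22 ± 0.17 in CNV libraries (limma adjusted p = 0.00253).

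**Figure D3:**
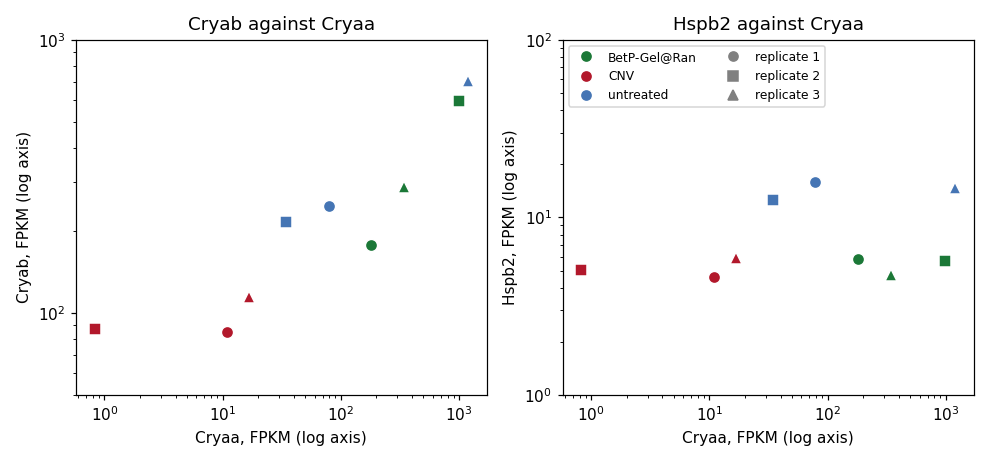
Cryab (left) and Hspb2 (right) against Cryaa in FPKM on log axes, 1 point per library, colour giving the group and shape the replicate. Cryab levels off between 84.8 and 113.9 FPKM in CNV libraries while Cryaa goes down to 0.825 FPKM, and Hspb2 is at 12.6 to 15.9 FPKM in untreated libraries against 4.60 to 5.92 FPKM in all others, whatever the level of Cryaa.

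Muscle markers moved in the same way as Hspb2. The summed level of 19 skeletal muscle markers was 1721 to 2043 FPKM in BetP-Gel@Ran libraries, 1174 to 2009 FPKM in CNV libraries and 6759 to 7414 FPKM in untreated libraries. Tnnc2 was listed at 0 in 9 of the 9 libraries and the other markers were above 0 in all. Of 18 tested, 18 fell for CNV minus untreated, 18 fell for BetP-Gel@Ran minus untreated and 0 passed with limma for BetP-Gel@Ran minus CNV. Acta1, the skeletal muscle actin, had 218, 201 and 172 FPKM in BetP-Gel@Ran libraries, 138, 141 and 234 FPKM in CNV libraries and 1603, 1424 and 1647 FPKM in untreated libraries. Of 9 tested genes of slow and oxidative muscle, 9 fell in each comparison with untreated libraries. The part of muscle in the levels of Cryab was not tested. Of 12 Müller glia and astrocyte markers, another known site of Cryab, 5 rose and 2 fell for CNV minus untreated (median difference -0.0043), and their summed level was 1632 to 1682 FPKM in BetP-Gel@Ran, 1594 to 1916 FPKM in CNV and 1920.5 to 2007 FPKM in untreated libraries.

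Among the other small heat shock genes, 5 of 6 tested fell for CNV minus untreated (median -1.39), 1 rose for BetP-Gel@Ran minus CNV and 4 fell for BetP-Gel@Ran minus untreated. Hspb7 and Hspb6, genes of heart and skeletal muscle, fell by 3.06 ± 0.17 and 1.71 ± 0.10 for CNV minus untreated (limma adjusted p = 8.00e-06 for each). Hspb1, the widely expressed stress chaperone Hsp25 of the mouse, had 618, 609 and 533 FPKM in BetP-Gel@Ran libraries, 222, 297 and 366 FPKM in CNV libraries and 866, 680.4 and 864 FPKM in untreated libraries. It was the most abundant of the 6 and the gene that rose for BetP-Gel@Ran minus CNV (1.02 ± 0.18, limma adjusted p = 0.0109). Hspb8 was at 32.3 to 35.9 FPKM in BetP-Gel@Ran, 32.5 to 35.5 FPKM in CNV and 35.5 to 38.8 FPKM in untreated libraries and was not called. Heat shock response genes showed no common direction for CNV minus untreated: of 15 tested, 3 rose and 4 fell, with a median of -0.08. For BetP-Gel@Ran minus untreated, 1 rose and 6 fell, with a median of -0.11, where 18.1% of all tested genes were called lower. Hspa1a, an inducible Hsp70 gene, fell by 1.08 ± 0.16 for CNV minus untreated (limma adjusted p = 6.55e-04).

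The proportions among the lens-type members differed between groups. Crybb3 made up 2.22%, 2.25% and 2.45% of the summed FPKM of the 7 members other than Cryab in BetP-Gel@Ran libraries, 4.33%, 7.34% and 3.37% in CNV libraries and 11.5%, 19.8% and 7.63% in untreated libraries. The 3 groups did not overlap in this share, but CNV replicate 2 lay just below untreated replicate 3 (7.34% and 7.63%). The share in CNV replicate 2 rests on 32 reads of Crybb3, too few to tell it from that of untreated replicate 3. Crybb2 made up 31.0%, 30.6% and 34.6% in BetP-Gel@Ran libraries, 23.7%, 13.0% and 33.5% in CNV libraries and 13.8%, 22.2% and 12.1% in untreated libraries, so BetP-Gel@Ran libraries lay above untreated ones. The mean share of Cryba2 was 9.46% ± 0.37 in BetP-Gel@Ran, 6.24% ± 2.69 in CNV and 5.68% ± 0.35 in untreated libraries (SD, n = 3 each). BetP-Gel@Ran libraries overlapped neither other group in this share, though that of CNV replicate 2 rests on 7 reads of Cryba2. A share also depends on the other genes in the sum. In the ratio of Cryba2 to Cryaa, all groups overlapped. That ratio was 0.375 to 0.594 in BetP-Gel@Ran, 0.405 to 0.553 in CNV and 0.292 to 0.504 in untreated libraries. Shares and ratios were formed after the levels had been seen, and their tests are descriptions of these libraries.

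The ratio of Crybb3 to its neighbour Crybb2 was 0.0717, 0.0736 and 0.0709 in BetP-Gel@Ran libraries, 0.183, 0.563 and 0.101 in CNV libraries and 0.831, 0.892 and 0.633 in untreated libraries. Within BetP-Gel@Ran it was nearly constant although Crybb2 itself ranged between 336 and 1231 FPKM. Untreated replicate 3, which had the most crystallin RNA, had a ratio closer to the other untreated libraries than to BetP-Gel@Ran replicate 2, whose Crybb2 level was close to its own. On the log2 scale the ratio was -3.80 ± 0.03 in BetP-Gel@Ran, -2.20 ± 1.26 in CNV and -0.36 ± 0.26 in untreated libraries (SD, n = 3 each), and each pair of groups gave an exact permutation p = 0.10, the smallest possible (adjusted 0.133). Without untreated replicate 3 the log2 ratio differed by -1.98 for CNV minus untreated (exact permutation p = 0.20) and by -3.58 for BetP-Gel@Ran minus untreated (exact permutation p = 0.10, the smallest possible), again without overlap. The value of CNV replicate 2 rests on 32 reads of Crybb3 and 49 of Crybb2.

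With Cryaa as a covariate, Crybb3 was lower in BetP-Gel@Ran than in untreated libraries by -2.55 ± 0.42 (limma adjusted p = 0.00472), and lower in CNV than in untreated libraries by -2.14 ± 0.60 (limma adjusted p = 0.0362). Without untreated replicate 3 these became -1.57 ± 0.45 (limma adjusted p = 0.0688, no longer called) and -2.57 ± 0.45 (limma adjusted p = 0.0117). In that reduced fit, 13.1% and 20.2% of all tested genes were called in the same comparisons. The ratio of Crybb3 to Cryaa was 0.0913 to 0.133 in BetP-Gel@Ran, 0.195 to 0.948 in CNV and 0.550 to 1.60 in untreated libraries. CNV and untreated libraries overlapped in this ratio (exact permutation p = 0.30, adjusted 0.36). BetP-Gel@Ran libraries lay below untreated ones (exact permutation p = 0.10, the smallest possible, adjusted 0.133). Crybb1 was also lower in CNV than in untreated libraries in the fit with the covariate, by -1.59 ± 0.43 (limma adjusted p = 0.0327) and, without untreated replicate 3, by -1.88 ± 0.36 (limma adjusted p = 0.0150). Cryaa itself was at 0.825 to 16.7 FPKM in CNV and 34.2 to 1190.4 FPKM in untreated libraries, without overlap. The CNV minus untreated differences in this fit therefore extend a common slope beyond shared Cryaa levels. The ratio of Crybb1 to Cryaa overlapped between CNV (0.203 to 0.982) and untreated libraries (0.354 to 0.661) and was not tested. Cryba1 was lower in BetP-Gel@Ran than in untreated libraries in the full fit (-1.50 ± 0.43, limma adjusted p = 0.0337) and not called without untreated replicate 3 (-0.50 ± 0.45, limma adjusted p = 0.499). In untreated replicate 3 it made up 43.2% of the summed FPKM of the 7 members, against 17.8% and 17.4% in the other untreated libraries. Cryba2 went the other way: it was higher in BetP-Gel@Ran than in untreated libraries by 0.87 ± 0.22 without untreated replicate 3 (limma adjusted p = 0.0437), and was not called with all libraries (0.16 ± 0.27, limma adjusted p = 0.680).

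**Figure D4:**
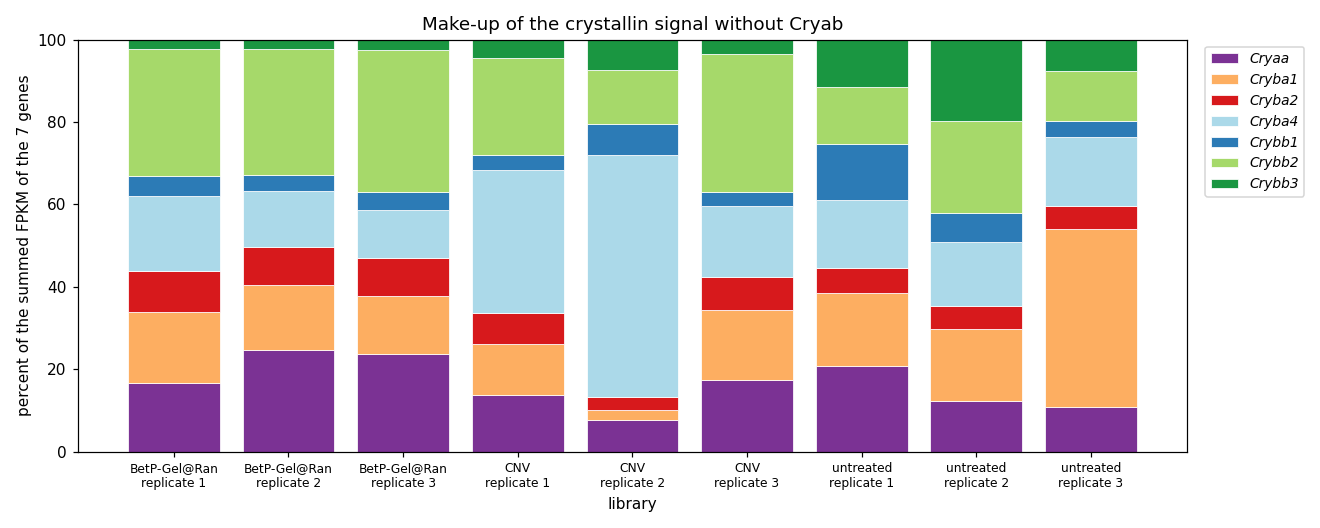
Percent of the summed FPKM of the 7 members other than Cryab taken by each gene, 1 bar per library, with BetP-Gel@Ran, CNV and untreated libraries from left to right. Crybb3 (top segment) takes 2.22% to 2.45% in BetP-Gel@Ran libraries and 7.63% to 19.8% in untreated ones, Cryba1 takes 43.2% in untreated replicate 3, and Cryba4 takes 58.8% in CNV replicate 2.

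Other lens genes bear on the same proportions. The summed FPKM of 21 other lens genes, among them the gamma crystallins, was 0.509, 0.444 and 0.526 times that of the 7 members in BetP-Gel@Ran libraries, 1.00, 4.12 and 0.844 times in CNV libraries and 2.31, 3.69 and 1.31 times in untreated libraries. BetP-Gel@Ran libraries lay below both other groups (exact permutation p = 0.10 for each, adjusted 0.133), also without untreated replicate 3. The CNV ratios rest in part on Tdrd7, which varied little. It had 27.3, 27.3 and 31.4 FPKM in CNV libraries, of list sums of 79.5, 43.9 and 81.0 FPKM. In BetP-Gel@Ran and untreated libraries it was at 34.7 to 39.2 FPKM and 35.5 to 40.0 FPKM. The ratio was not tested without this gene. Cryge, a gamma crystallin gene, had 0, 0.153 and 0 FPKM in BetP-Gel@Ran libraries, 0 in all CNV libraries and 108, 244 and 1369 FPKM in untreated libraries. Crygs, the gamma S gene, had 262, 1031 and 338 FPKM in BetP-Gel@Ran libraries, 20.4, 0.456 and 26.3 FPKM in CNV libraries and 105, 122 and 4758 FPKM in untreated libraries. Crygb, another gamma gene, had 90.9, 249 and 136 FPKM in BetP-Gel@Ran and 202, 275 and 3974 FPKM in untreated libraries. Bfsp1, a lens fibre gene, had 18.1, 44.7 and 21.4 FPKM in BetP-Gel@Ran and 8.36, 3.44 and 35.7 FPKM in untreated libraries. Like Crygs, Bfsp1, Bfsp2, Mip, Lim2, Grifin and Lctl were higher in every BetP-Gel@Ran library than in untreated replicates 1 and 2. This did not hold for untreated replicate 3. The ratio was not tested without the gamma crystallins. Of the 17 other lens genes tested, 9 fell for CNV minus untreated (median -2.19), 6 rose for BetP-Gel@Ran minus CNV (median 2.80) and 3 fell for BetP-Gel@Ran minus untreated (median 0.19).

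The genes whose log2 values were most like those of Cryaa over the 9 libraries, members left out, were Crygs (r = 0.974), Pgm5 (r = 0.960), Cnmd (r = 0.959), Lim2 (r = 0.959) and Bfsp1 (r = 0.959), of which Lim2 encodes a membrane protein and Bfsp1 an intermediate filament protein of lens fibres. Among those most like Cryab, members again left out, were Pitx3, a lens transcription factor gene (r = 0.954), Slc1a2 (r = 0.941), Mb21d2 (r = 0.937) and Polg2 (r = 0.934). None of these genes was among the 5 most like Cryaa, and Pitx3 was low, at 0.0331 to 1.99 FPKM. Of the members, Crybb1 (r = 0.955) and Crybb3 (r = 0.940) were most like Cryab. These values of r order genes by likeness over 9 libraries that share their groups, and carry no test.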

How the data were processed

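The authors deposited FPKM per gene and library, with gene length and mm10 coordinates in the same table. Per the submitters' processing notes, reads were assigned to genes with HTSeq 0.6.0. The aligner was not named in them. Per the labels' protocols, poly-T beads selected the mRNA and a NEBNext Ultra kit served for library preparation; this kit is known not to mark strand. Multiplying FPKM by gene length and dividing by a constant of the library returned whole reads for 100.0% of values (tolerance 0.05), which are the reads quoted. The members and gene lists were chosen with earlier results of these data known.

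Tests covered genes reaching 1 FPKM or more in 3 or more of the 9 libraries. log2(FPKM + 1) was fitted with limma 3.58.1 (R 4.3.3, statmod 1.5.0), with 1 mean per group, trend and robust options, two-sided p-values and Benjamini-Hochberg adjustment over all tested genes. A fold change on this scale understates that of low genes. The fit was checked on simulated data. Single ratios were compared with exact two-sided permutation tests. No 2 replicates were the same library deposited again: within groups, chi-square per gene was 9.05 to 51.0.

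Named beside the members were Hspb2 and the other small heat shock genes, the 5 genes most like Cryaa and Cryab, and up to 4 of the most abundant genes of each list, left out where they add nothing (some genes that this rule names are not reported here); Hspa1a, Pitx3 and other genes singled out were chosen after their values were seen. Alternatives were another pseudocount and filters, quantile normalization, a fit of 2 groups, a fit without trend and robust options, a replicate block, leaving out single libraries, limma voom, and Cryaa as a covariate. The covariate and the ratios without untreated replicate 3 were chosen after seeing the data. Cryab, Cryaa, Cryba1 and Crybb2 overlap other annotated genes, and reads of overlapping genes cannot be told apart by strand.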

Additional observations from a re-analysis of the deposited data

How the results depend on the processing

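For CNV minus untreated, the 5 member calls became 3 with no filter and with only the 2 groups compared, 8 without trend and robust options, 0 with limma voom on recovered reads, and 2 to 7 with 1 library left out. For BetP-Gel@Ran minus CNV, the 4 calls became 1 with no filter, 8 with only the 2 groups compared, 0 with limma voom, 0 with the replicate block and 0 to 8 with 1 library left out. For BetP-Gel@Ran minus untreated, the 0 calls became 0 to 3 with 1 library left out. Same-numbered libraries did not deviate together (r of -0.148 to 0.0841 between deviations from group means). No pairing by number was seen, but a pairing with weak effects would not show in this check. The replicate block kept the count of member calls within 1.5 times in the other comparisons. Called genes among all tested were 6281 for CNV minus untreated and 3846 with a filter of 5 FPKM (5166 to 6188 with 1 library left out). They were 1983 for BetP-Gel@Ran minus CNV, 853 with no filter and 1189 with only the 2 groups compared (446 to 3215 with 1 library left out). For BetP-Gel@Ran minus untreated they were 4813 (3198 to 5129). The fits with no filter and with a filter of 5 FPKM did not test the same 14086 genes, so their counts do not compare directly. Of 136 planned repeats of member differences in each comparison, 26 calls were lost and 5 gained for CNV minus untreated, 35 lost and 12 gained for BetP-Gel@Ran minus CNV, and none changed sign in either. For BetP-Gel@Ran minus untreated, 11 changed sign: with 1 library left out, differences ranged from -0.56 to 0.44 for Cryab, -0.96 to 2.34 for Cryba1, -0.36 to 2.34 for Cryba4 and -0.90 to 1.27 for Crybb1, and Cryab was 0.061 with quantile normalization. Hspb2 for BetP-Gel@Ran minus CNV ranged from -0.021 to 0.13. The cause of these changes was not tested. Cryab minus Cryaa kept its sign with 1 library left out (1.60 to 3.28, -4.56 to -3.11 and -2.46 to -0.78 in the 3 comparisons), with a pseudocount of 0.1 and with quantile normalization.

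With Cryaa as a covariate, differences that changed sign for CNV minus untreated were Cryba1 0.027, Cryba2 0.40, Cryba4 0.39 and Crybb2 0.45, and without untreated replicate 3 Cryba2 0.087 and Crybb2 0.39. For BetP-Gel@Ran minus CNV they were Cryab -0.17, Cryba1 -1.53, Cryba2 -0.24, Cryba4 -1.01, Crybb3 -0.42 and Hspb2 -0.074, and without untreated replicate 3 Cryba1 -0.085 and Hspb2 -0.16. For BetP-Gel@Ran minus untreated they were Cryba1 -1.50, Cryba4 -0.62 and Crybb1 -0.93, and without untreated replicate 3 Cryba1 -0.50 and Crybb1 -0.28. The depth limits CNV replicate 2 most, with 7 reads for Cryba1 and Cryba2.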

Other observations

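Among transcription factors known to act in the lens, Pax6, a factor of lens, retina and cornea, fell by 0.52 ± 0.12 on the log2 scale for CNV minus untreated (limma adjusted p = 0.00620) and rose by 0.47 ± 0.12 for BetP-Gel@Ran minus CNV (limma adjusted p = 0.0315). Maf, which macrophages also express, rose by 0.68 ± 0.11 for CNV minus untreated (limma adjusted p = 9.35e-04), while 10 of 10 myeloid markers rose in the same comparison. Pitx3 had 0.411, 1.74 and 0.656 FPKM in BetP-Gel@Ran libraries, 0.0331, 0.112 and 0.246 FPKM in CNV libraries and 0.695, 1.18 and 1.99 FPKM in untreated libraries. It fell by 0.98 ± 0.27 for CNV minus untreated (limma adjusted p = 0.0146). Foxe3, a marker of lens epithelium, was listed at 0 in 5 of the 9 libraries and did not pass the filter. Of the 12 factors, 8 were tested, 2 rose and 3 fell for CNV minus untreated, and the median difference was -0.20.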
